A study of Mus musculus with 11 samples.

Results

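The subject is cholesterol synthesis and its control by the sterol regulatory element binding proteins (SREBPs) in granulosa cells of the mouse ovary, the cells that nurse the oocyte and make estrogen. The members are 33 listed genes, chosen by role with earlier results of these data known. They were found by Entrez gene ID in 2 deposited tables, which hold 24809 gene IDs for RNA and 24541 for the histone mark H3K4me3. All 33 were present in both tables and passed the filter on low counts in both. They comprise 3 genes of acetyl-CoA supply, 5 of the mevalonate pathway, 5 from isoprenoids to lanosterol, 10 from lanosterol to cholesterol, 7 of SREBP control and 3 of fatty acid synthesis. Some enzymes of the pathway are not analysed here.

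The 48 h group comes from C57BL/6 mice collected 48 h after equine chorionic gonadotropin (eCG), which acts in mice like follicle-stimulating hormone (FSH) and starts follicle growth, and the 0 h group from mice of the same strain left untreated. The labels also call the treatment FSH. RNA-seq has 3 libraries per group, from cells released by puncturing follicles of mice labelled postnatal day 21. H3K4me3, a mark of active promoters, was measured by ChIP-seq in 2 libraries per group, for which no age is labelled. With no untreated group at 48 h, the effect of eCG cannot be told apart from that of time or of collection, and nothing says which libraries of the 2 assays came from the same mice. The libraries of a group are described as biological replicates, without saying whether each came from separate animals or a pool.

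Cholesterol is built from acetyl-CoA through mevalonate, isoprenoid pyrophosphates, squalene and lanosterol. Its supply matters to granulosa cells because cholesterol is the precursor of steroid hormones. SREBPs are made as precursors in the membrane of the endoplasmic reticulum, where Scap escorts them and the Insig proteins hold them back when sterols are plentiful. When sterols run low, Scap carries the precursor to the Golgi, site-1 and site-2 proteases (Mbtps1, Mbtps2) release its amino-terminal part, and this part enters the nucleus and activates genes of sterol and fatty acid synthesis. SREBP-2 (Srebf2) acts mainly on the sterol genes and SREBP-1c (a product of Srebf1) mainly on fatty acid genes. SREBPs bind sterol regulatory elements, often beside boxes for the factors NF-Y and Sp1.

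The starts of 29 of the 33 genes are in the RefSeq promoter table (GRCm38.p6, which equals mm10), in 37 windows of 300 bases from 250 before to 50 after the start. Fdps, Fdft1, Sqle and Scd2 have no entry there. The 5 promoters below show what these windows hold beside the responses described later. The string searched here for a sterol regulatory element was TCACNCCAC, where N is any base. The first promoter was taken because it alone holds that string. The other 4 were chosen after their values were seen: Hsd17b7 for the largest RNA rise, Msmo1 for a rise in both assays, Mvk for the most NF-Y boxes and Ggps1 as a gene that did not pass the test. Capitals mark TCACNCCAC and the NF-Y box CCAAT, read on either strand (ATTGG is CCAAT on the other strand), and each sequence runs 5′ to 3′ in the direction of its gene. The windows lie at chr13:119690101-119690400, plus strand (Hmgcs1), chr1:169969156-169969455, minus strand (Hsd17b7), chr8:64733529-64733828, minus strand (Msmo1), chr5:114444019-114444318, plus strand (Mvk) and chr13:14063439-14063738, minus strand (Ggps1).
Hmgcs1 promoter: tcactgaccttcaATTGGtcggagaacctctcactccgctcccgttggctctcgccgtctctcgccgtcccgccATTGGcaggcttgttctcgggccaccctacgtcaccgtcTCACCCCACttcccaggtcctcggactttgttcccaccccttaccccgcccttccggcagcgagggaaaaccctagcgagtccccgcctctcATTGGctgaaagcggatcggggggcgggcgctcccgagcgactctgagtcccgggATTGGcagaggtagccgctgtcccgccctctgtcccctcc
Hsd17b7 promoter: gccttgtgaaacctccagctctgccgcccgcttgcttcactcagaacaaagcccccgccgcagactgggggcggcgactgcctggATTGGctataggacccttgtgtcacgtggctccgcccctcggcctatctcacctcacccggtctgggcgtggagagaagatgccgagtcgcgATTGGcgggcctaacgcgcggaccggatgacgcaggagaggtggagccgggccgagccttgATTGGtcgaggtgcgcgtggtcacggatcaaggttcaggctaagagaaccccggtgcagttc
Msmo1 promoter: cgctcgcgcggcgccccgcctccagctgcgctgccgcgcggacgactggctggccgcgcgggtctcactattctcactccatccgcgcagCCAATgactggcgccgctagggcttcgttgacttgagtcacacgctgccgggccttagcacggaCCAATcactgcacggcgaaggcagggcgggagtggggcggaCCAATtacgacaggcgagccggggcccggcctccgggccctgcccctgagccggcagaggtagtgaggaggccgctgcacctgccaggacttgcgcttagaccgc
Mvk promoter: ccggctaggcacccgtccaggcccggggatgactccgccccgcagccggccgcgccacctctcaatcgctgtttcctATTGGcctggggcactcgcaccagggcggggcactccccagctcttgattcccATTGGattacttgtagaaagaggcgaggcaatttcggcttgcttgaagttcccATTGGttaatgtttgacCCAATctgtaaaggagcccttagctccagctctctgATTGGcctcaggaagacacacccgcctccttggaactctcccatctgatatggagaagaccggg
Ggps1 promoter: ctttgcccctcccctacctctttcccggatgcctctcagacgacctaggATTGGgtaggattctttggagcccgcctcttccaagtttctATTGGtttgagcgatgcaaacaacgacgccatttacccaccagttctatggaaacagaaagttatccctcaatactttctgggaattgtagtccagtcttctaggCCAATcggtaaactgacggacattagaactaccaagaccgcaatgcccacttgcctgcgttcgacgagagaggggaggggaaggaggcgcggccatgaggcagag
The Hmgcs1 window holds the letters TCACCCCAC, starting at position -137 from the start, and 4 NF-Y boxes. The Mvk window holds 5 such boxes, and those of Hsd17b7, Msmo1 and Ggps1 hold 3 each.

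Over all 37 windows, both strands searched and overlapping matches counted, TCACNCCAC was found in 1 window (2.70%), against 1.24% of the 32851 windows in the table. CCAAT was found in 24 windows (64.9%), against 37.4% of all windows and 37.2% of the 14486 windows of genes tested in RNA. The Sp1 box GGGCGG was found in 28 windows (75.7%), against 35.7% of all windows and 60.5% of those of genes tested in RNA. The E-box CACGTG, which reads the same on both strands, was found in 6 windows (16.2%), against 7.15% and 9.67%. By gene, 23 of 29 members (79.3%) had a CCAAT in at least 1 window, against 41.1% of all genes with windows and 42.4% of those tested in RNA. Mbtps1, Mbtps2, Por, Acaca, Acat2 and Scap had none. Windows of 1 gene can overlap, and a match describes letters and not a bound site. Elements whose letters differ from the string searched were not counted. A window without TCACNCCAC is therefore not shown to lack a sterol regulatory element.

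An RNA library held between 12013849 and 26343971 counts in total, and an H3K4me3 library between 11989769 and 17968033. The identity of the cells was checked by markers: all 11 granulosa markers were detected in every library and their summed level was 53119 to 55102 CPM (normalised read counts, here scaled by the trimmed mean of M-values, TMM, to a common library size) at 48 h and 22871 to 28753 CPM at 0 h. Of these markers 8 rose, 2 fell and 1 did not pass. Of 10 endothelial markers 8 rose and none fell, and their summed level was 574, 189 and 228 CPM in 48 h replicates 1 to 3, against 101 to 105 CPM at 0 h. Of 9 theca markers 1 rose and 2 fell (1966 to 3755 CPM at 48 h, 1739 to 2521 CPM at 0 h), of 6 smooth muscle markers 1 rose and none fell (156 to 364 CPM at 48 h, 250.3 to 287 CPM at 0 h), and of 8 immune markers, 7 of them tested, none passed or had an unadjusted p under 0.05 (149 to 257 CPM at 48 h, 185 to 303 CPM at 0 h). Of the genes that define theca cells, Cyp17a1 had 1482, 587 and 408 CPM at 48 h, against 1126, 573 and 727 CPM at 0 h, and Insl3 had at most 0.843 CPM at 48 h and 1.48 CPM at 0 h. Of 9 oocyte markers, 8 tested, 4 fell (32.8 to 83.3 CPM at 48 h, 80.5 to 88.5 CPM at 0 h). Of 6 red cell markers, the 4 globin genes are listed at 0 in every library and the other 2 rose (163 to 677 CPM at 48 h, 67.8 to 128 CPM at 0 h). Over all genes tested in RNA, 16.0% rose and 15.8% fell. The theca and smooth muscle counts are small and near those shares, so nothing is read from them. In 48 h replicate 1 the endothelial, theca, smooth muscle, immune and oocyte sums were the highest of the 48 h libraries, so folds without it are also given below.

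RNA of the pathway was higher at 48 h along nearly its whole length. Of the 33 genes 30 rose and none fell by edgeR's quasi-likelihood test at an adjusted p under 0.05, with Benjamini-Hochberg adjustment over all 14401 genes tested. Over all genes tested, 31.8% were called, 16.0% higher and 15.8% lower. The members were chosen with earlier results of these data known, so this contrast is not an independent test. All 33 folds were above 0, and none of the members fell with DESeq2 either. With scaling by library size alone, the median log2 fold of all genes was -0.20 and 26.8% of all calls were higher, against 50.2% as fitted, and 29 members still rose. The 3 that did not pass were Ggps1, Por and Mbtps1. The median log2 fold change (48 h over 0 h) was 1.11 over the members and -0.03 over all genes. In 31 of the 33, every 48 h library lay above every 0 h library, which held for 22.1% of all genes. Summed over the members, the level was 14262, 10722 and 10879 CPM in 48 h replicates 1 to 3, against 5959, 5435 and 5870 CPM in the 0 h replicates. The fatty acid gene Scd2 alone made up 5100, 4151 and 3869 CPM of the 48 h sums. Of the 0 h sums it made up 2249, 2048 and 2322 CPM. In what follows, CPM values are given for replicates 1 to 3 in order and log2 folds ± standard error (SE). Levels in CPM are not scaled for gene length and are compared here only within a gene. In bulk RNA, fewer cells of a type and less RNA per cell cannot be told apart. The plot of RNA by library shows the members in the order of their roles.

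**Figure D1:**
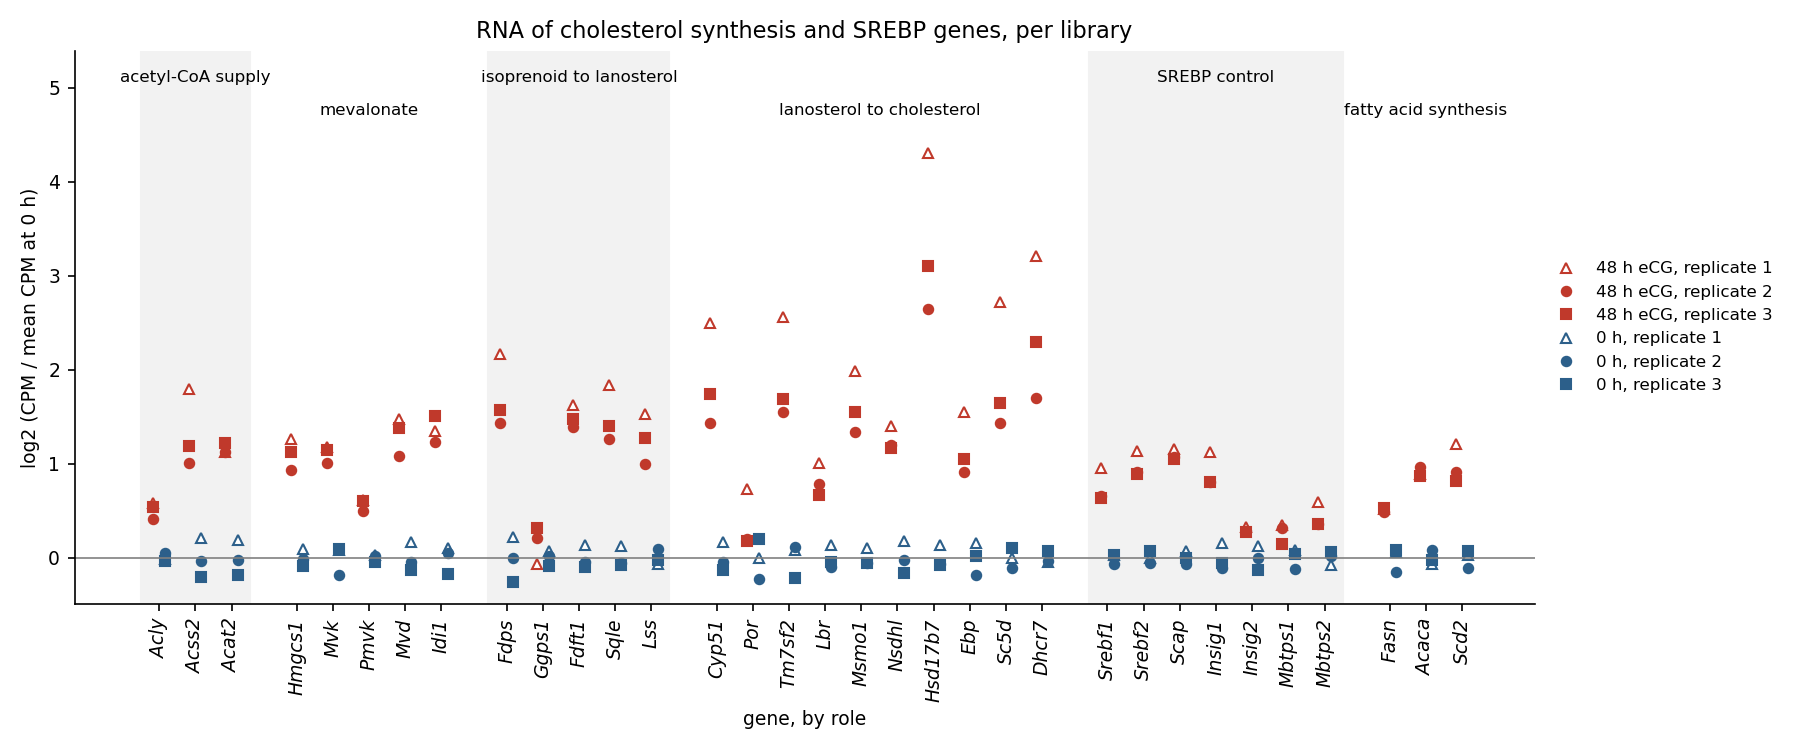
RNA level of each of the 33 genes in each library, as log2 of CPM over the gene's 0 h mean, grouped by role; red marks are the 3 libraries at 48 h and blue marks the 3 at 0 h, with open triangles for replicate 1. All genes but Ggps1 and Por have their 48 h libraries above the 0 h libraries, and Hsd17b7 lies highest, with 48 h replicate 1 apart from the other two.

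All 3 genes of acetyl-CoA supply rose, with a median log2 fold of 1.16. Acss2 (gene ID 60525, chromosome 2, 155518043 to 155562743), which makes acetyl-CoA from acetate, had 40.6, 23.6 and 26.6 CPM at 48 h, against 13.6, 11.5 and 10.1 CPM at 0 h (log2 fold 1.37 ± 0.21, adjusted p = 0.00213). Acat2, the cytosolic thiolase that joins acetyl-CoA units, had 42.2, 42.2 and 44.9 CPM at 48 h, against 21.99, 19.02 and 16.99 CPM at 0 h (log2 fold 1.16 ± 0.11, adjusted p = 3.03e-04). The 48 h libraries were close together for Acat2, while for Acss2 replicate 1 was well above the others, and without it the log2 fold of Acss2 was 1.10. Acly, which splits citrate into acetyl-CoA in the cytosol, had 453, 405 and 442 CPM at 48 h, against 301, 315 and 295 CPM at 0 h, the smallest rise of the group (log2 fold 0.51 ± 0.09, adjusted p = 0.00386). The related gene Acat3 held 157 RNA counts over all 6 libraries, against 3170 for Acat2.

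All 5 genes of the mevalonate segment rose, with a median log2 fold of 1.11. Hmgcs1 (gene ID 208715, chromosome 13, 119690351 to 119708260), which condenses acetyl-CoA units into HMG-CoA, had 309, 247 and 282 CPM at 48 h, against 138, 128 and 122 CPM at 0 h (log2 fold 1.11 ± 0.11, adjusted p = 3.35e-04). Mvk (chromosome 5, 114444264 to 114460591), mevalonate kinase, had 75.3, 67.1 and 73.8 CPM at 48 h, against 35.2, 29.3 and 35.5 CPM at 0 h (log2 fold 1.11 ± 0.10, adjusted p = 2.84e-04). The promoters of both are printed above, and both genes were a little over 2-fold higher (ratios of mean CPM of 2.16 and 2.16). Mvd, the decarboxylase that yields isopentenyl pyrophosphate, had 50.7, 38.7 and 47.5 CPM at 48 h, against 20.4, 17.7 and 16.6 CPM at 0 h (log2 fold 1.32 ± 0.13, adjusted p = 3.39e-04). Idi1, which isomerizes that product, had 24.2, 22.4 and 27.1 CPM at 48 h, against 10.2, 9.83 and 8.44 CPM at 0 h (log2 fold 1.37 ± 0.13, adjusted p = 2.93e-04). The related gene Idi2 had 0 RNA counts in all libraries. Pmvk, phosphomevalonate kinase, moved least, with 24.3, 22.4 and 24.2 CPM at 48 h, against 16.3, 16.2 and 15.4 CPM at 0 h (log2 fold 0.57 ± 0.10, adjusted p = 0.00319), and its groups still did not overlap.

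From isoprenoids to lanosterol 4 of 5 genes rose, with a median log2 fold of 1.50 over the 5. Fdps (gene ID 110196, chromosome 3, 89093588 to 89101967), farnesyl pyrophosphate synthase at the branch point of the pathway, had 455, 273 and 301 CPM at 48 h, against 118, 102 and 84.6 CPM at 0 h (log2 fold 1.76 ± 0.20, adjusted p = 6.97e-04). Its lowest 48 h library was far above its highest 0 h library. Fdft1, squalene synthase and the first enzyme committed to sterols, had 236, 199.8 and 212 CPM at 48 h, against 84.2, 73.9 and 71.4 CPM at 0 h (log2 fold 1.50 ± 0.10, adjusted p = 9.77e-05), with the smallest adjusted p of the 33 genes. Fdft1 overlaps the cathepsin gene Ctsb in the gene table, which held 79561 RNA counts against 14671, and reads of overlapping genes may not be told apart. Sqle, squalene epoxidase, had 333, 223 and 246 CPM at 48 h, against 102, 89.6 and 88.5 CPM at 0 h (log2 fold 1.52 ± 0.15, adjusted p = 3.61e-04). Lss, lanosterol synthase, had 92.8, 64.2 and 77.7 CPM at 48 h, against 30.7, 34.3 and 31.6 CPM at 0 h (log2 fold 1.28 ± 0.13, adjusted p = 4.61e-04). These 4 genes lie on the route to sterols. Ggps1, which leads away from it to geranylgeranyl groups for protein prenylation, had 44.1, 53.5 and 57.7 CPM at 48 h, against 48.5, 46.9 and 43.6 CPM at 0 h, with overlapping groups (log2 fold 0.16 ± 0.11, adjusted p = 0.300). Its 48 h replicate 1 was the lowest of that group, and without that library Ggps1 passed with a log2 fold of 0.26 and an adjusted p of 0.0384. With scaling by library size alone its fold was -0.01, under a shift of the median of all genes to -0.20.

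The enzymes from lanosterol to cholesterol had the highest median of the 6 roles: 9 of 10 rose, with a median log2 fold of 1.81. Hsd17b7 (gene ID 15490, chromosome 1, 169949535 to 169969242) is the 3-ketosteroid reductase of C4 demethylation and also converts estrone to estradiol in rodents. It had 657, 207 and 285 CPM at 48 h, against 36.4, 31.6 and 31.3 CPM at 0 h, a ratio of means of 11.6 (log2 fold 3.53 ± 0.40, adjusted p = 6.21e-04). All its 48 h libraries were far above the 0 h libraries, and its fold was the 51st highest of the 14401 genes tested. Dhcr7 (gene ID 13360, chromosome 7, 143823167 to 143848410), the 7-dehydrocholesterol reductase of the last step, had 694, 243 and 368 CPM at 48 h, against 72.8, 73.3 and 78.9 CPM at 0 h (log2 fold 2.53 ± 0.33, adjusted p = 0.00110). Sc5d, which makes 7-dehydrocholesterol, had 542, 223 and 257 CPM at 48 h, against 82.04, 76.6 and 88.8 CPM at 0 h (log2 fold 2.05 ± 0.30, adjusted p = 0.00183). In these 3 genes 48 h replicate 1 was far above the other 48 h libraries, which were in turn well above 0 h.

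Cyp51, the lanosterol 14-alpha demethylase that opens this segment, had 484, 229.9 and 286 CPM at 48 h, against 95.5, 82.7 and 77.99 CPM at 0 h (log2 fold 1.96 ± 0.25, adjusted p = 0.00100). Por, the reductase that passes electrons to Cyp51, Sqle and other microsomal enzymes, had 261, 180.3 and 177 CPM at 48 h, against 156, 134 and 179.8 CPM at 0 h and did not pass (log2 fold 0.39 ± 0.17, adjusted p = 0.105). Only 48 h replicate 1 lay clearly above the 0 h libraries of Por, and without it the log2 fold was 0.19 (adjusted p = 0.223). Tm7sf2 and Lbr both encode sterol C14 reductases, and Lbr is also a receptor of the nuclear lamina. Tm7sf2 (chromosome 19, 6062821 to 6067850) had 98.2, 48.6 and 53.6 CPM at 48 h, against 17.6, 17.99 and 14.3 CPM at 0 h (log2 fold 2.00 ± 0.26, adjusted p = 0.00105). Lbr had 130.3, 111 and 103 CPM at 48 h, against 71.4, 60.4 and 62.7 CPM at 0 h (log2 fold 0.83 ± 0.11, adjusted p = 0.00116). Both rose, Tm7sf2 with the higher fold. Tm7sf2 overlaps Vps51 in the gene table (7291 RNA counts against 4018).

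The C4 demethylation enzymes rose as well. Msmo1, the C4 methyl oxidase, had 521, 333 and 385 CPM at 48 h, against 141, 127 and 127 CPM at 0 h (log2 fold 1.65 ± 0.16, adjusted p = 3.39e-04). Nsdhl, the C4 decarboxylating dehydrogenase, had 74.1, 64.5 and 62.9 CPM at 48 h, against 31.7, 27.5 and 24.96 CPM at 0 h (log2 fold 1.26 ± 0.11, adjusted p = 2.67e-04). Of the 3 enzymes of this step, Hsd17b7 had the highest fold and Nsdhl the lowest. Ebp, which shifts the ring double bond, had 83.9, 54.01 and 59.3 CPM at 48 h, against 31.9, 25.1 and 28.9 CPM at 0 h (log2 fold 1.20 ± 0.17, adjusted p = 0.00152).

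48 h replicate 1 was the highest 48 h library in all 10 of these late enzymes, in 28 of the 33 members (84.8%) and in 42.0% of all genes tested. Its level over the mean of the other 48 h libraries was 2.67 for Hsd17b7, 2.27 for Dhcr7, 2.26 for Sc5d, 1.92 for Tm7sf2 and 1.88 for Cyp51, with a median of 1.2 over the members and 1.0 over all genes. Relative to the 0 h mean, the median log2 level of the late enzymes was 2.24 in replicate 1, and 1.38 and 1.59 in replicates 2 and 3. The endothelial markers had 2.50, 0.81 and 1.07 in the same libraries, the theca markers 0.33, -0.47 and -0.68, and the oocyte markers -0.18, -1.27 and -1.30, and the part of these cells in the result was not tested. Without 48 h replicate 1, the same 9 late enzymes rose, with a median log2 fold of 1.49 over the 10. Hsd17b7 then had a log2 fold of 2.89, a fold 1.56 times smaller, Dhcr7 2.02, Tm7sf2 1.62, Cyp51 1.59 and Sc5d 1.54, and all 5 passed. For the 26 members other than these 5, Acss2 and Por, the fold with every library was 0.933 to 1.20 times that without it. Over all members 31 rose without that library, with a median of 1.06, and the fold of Hsd17b7 was the only one of the 33 to move by more than 1.5 times. The plot of group medians sets the members beside the markers.

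**Figure D2:**
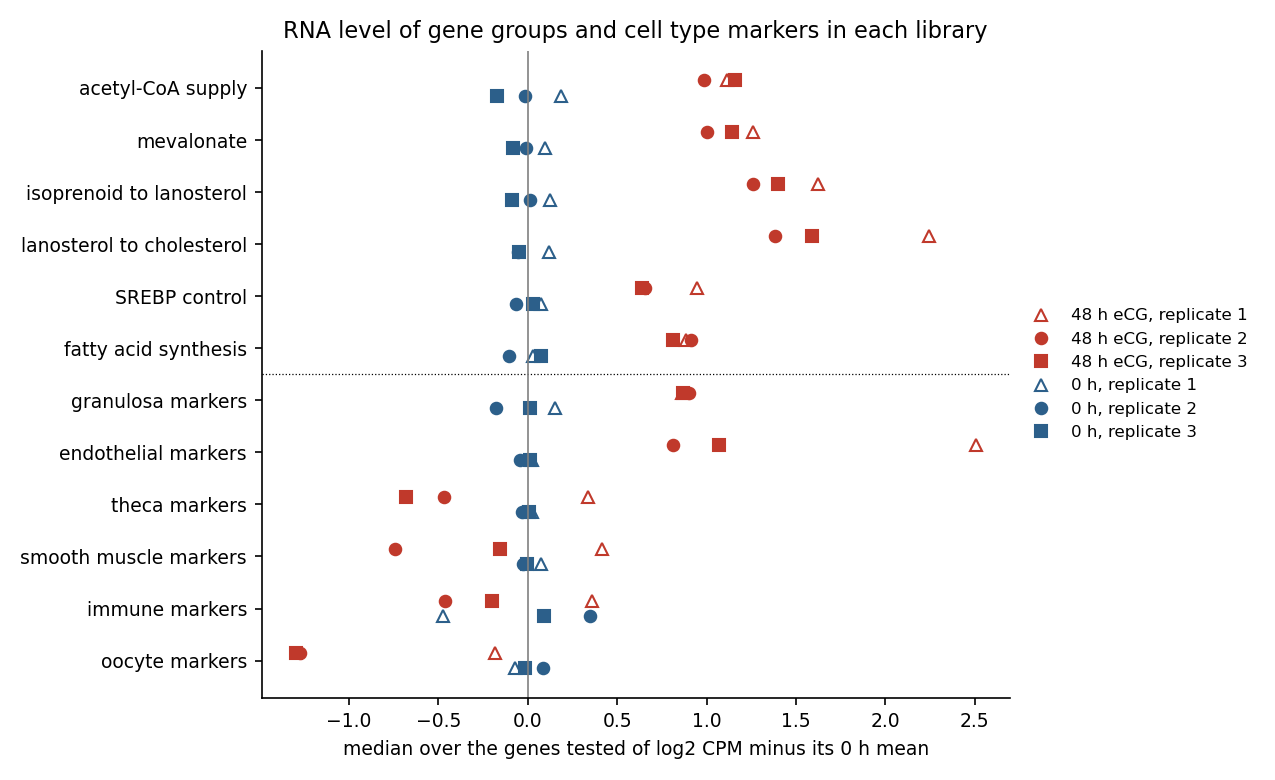
Median over the tested genes of each group of log2 CPM minus its 0 h mean, in each RNA library; the 6 roles are above the dotted line and the cell type markers under it, with red for 48 h, blue for 0 h and open triangles for replicate 1. The late enzymes stand at 2.24 in 48 h replicate 1 and at 1.38 and 1.59 in the other 48 h libraries, and the endothelial markers at 2.50, 0.81 and 1.07.

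Of the 7 genes of SREBP control 6 rose, with a median log2 fold of 0.76, lower than that of the sterol enzymes (1.34 over 20 genes, 18 of them risen). Scap (gene ID 235623, chromosome 9, 110333288 to 110384949), the escort and sterol sensor, had 1134, 1071 and 1051 CPM at 48 h, against 534, 484 and 506 CPM at 0 h (log2 fold 1.09 ± 0.10, adjusted p = 2.60e-04). Srebf2 (gene ID 20788, chromosome 15, 82147269 to 82205379), the factor for sterol genes, had 389.9, 334 and 329 CPM at 48 h, against 177, 170.1 and 186 CPM at 0 h (log2 fold 0.98 ± 0.10, adjusted p = 3.89e-04). Both were about 2-fold higher (ratios of mean CPM of 2.14 and 1.98), with little spread among the libraries of a group. Srebf1, whose isoforms the gene counts do not separate, had 299, 244 and 240.3 CPM at 48 h, against 158, 148 and 158 CPM at 0 h (log2 fold 0.76 ± 0.11, adjusted p = 0.00142). It overlaps Rai1 in the gene table (13311 RNA counts against 21191).

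Both retention factors rose, Insig2 narrowly. Insig1, itself a target of SREBPs, had 189, 153 and 152 CPM at 48 h, against 97.1, 80.4 and 83.8 CPM at 0 h (log2 fold 0.92 ± 0.12, adjusted p = 0.00101). Insig2 had 39.6, 38.6 and 38.1 CPM at 48 h, against 34.5, 31.5 and 28.97 CPM at 0 h (log2 fold 0.29 ± 0.09, adjusted p = 0.0388). The call of Insig2 held in 5 of 12 alternative settings, in which its adjusted p was 0.0244 to 0.307. Of the proteases, Mbtps2 had 83.5, 70.7 and 70.6 CPM at 48 h, against 52.5, 55.9 and 57.5 CPM at 0 h (log2 fold 0.44 ± 0.09, adjusted p = 0.00838), and Mbtps1 had 598, 588 and 524 CPM at 48 h, against 498, 434 and 483 CPM at 0 h (log2 fold 0.27 ± 0.10, adjusted p = 0.0745). The groups of Mbtps1 did not overlap, though it did not pass. It passed with DESeq2, where its adjusted p was 0.0131, in a range of 0.0131 to 0.413 over the alternatives. Mbtps2 overlaps Yy2 in the gene table (766 RNA counts against 6704).

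All 3 genes of fatty acid synthesis rose, with a median log2 fold of 0.91. Scd2 (gene ID 20250, chromosome 19, 44293676 to 44306864), a stearoyl-CoA desaturase, had 5100.4, 4151 and 3869 CPM at 48 h, against 2249, 2048 and 2322 CPM at 0 h (log2 fold 0.99 ± 0.14, adjusted p = 0.00132). Acaca, acetyl-CoA carboxylase, had 136, 143 and 134 CPM at 48 h, against 70.01, 77.8 and 72.4 CPM at 0 h (log2 fold 0.91 ± 0.08, adjusted p = 2.53e-04). Fasn, fatty acid synthase, had 567, 553 and 572 CPM at 48 h, against 413, 356 and 418 CPM at 0 h (log2 fold 0.51 ± 0.10, adjusted p = 0.00559). Here 48 h replicate 1 was the highest 48 h library for Scd2 only, at 1.27 times the mean of the other 48 h libraries. Acaca overlaps Tada2a in the gene table (2969 RNA counts against 10930).

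To compare genes of related roles, the log2 ratio of their RNA counts was taken within each library for 6 pairs. A ratio of counts depends on both gene lengths, so only its change is read. Over 3 against 3 libraries the smallest two-sided p of the exact permutation test is 0.1, which cannot reach 0.05, and adjusted over the 6 pairs it becomes 0.12. Tm7sf2 over Lbr was -0.41, -1.20 and -0.94 in the 48 h libraries, against -2.02, -1.75 and -2.13 at 0 h, a difference of 1.12. Insig1 over Insig2 was 2.26, 1.98 and 1.99 at 48 h, against 1.49, 1.35 and 1.53 at 0 h, a difference of 0.62. In both pairs the ratio was higher in every 48 h library, and without 48 h replicate 1 the differences were 0.90 and 0.53. Acly over Acss2 was 3.48, 4.10 and 4.05 at 48 h, against 4.47, 4.78 and 4.86 at 0 h, a difference of -0.82. Fasn over Scd2 was -3.17, -2.91 and -2.76 at 48 h, against -2.45, -2.52 and -2.47 at 0 h, a difference of -0.46. Both were lower in every 48 h library, and without 48 h replicate 1 the differences were -0.63 and -0.35. Srebf2 over Srebf1 was 0.38, 0.45 and 0.45 at 48 h, against 0.16, 0.20 and 0.24 at 0 h, a difference of 0.23 with groups that did not overlap. These 5 pairs had an exact p of 0.1, the smallest possible. Mbtps1 over Mbtps2 had overlapping groups, with means of 2.93 ± 0.11 at 48 h and 3.09 ± 0.14 at 0 h (SD, n = 3 each; exact permutation p = 0.2).

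**Figure D3:**
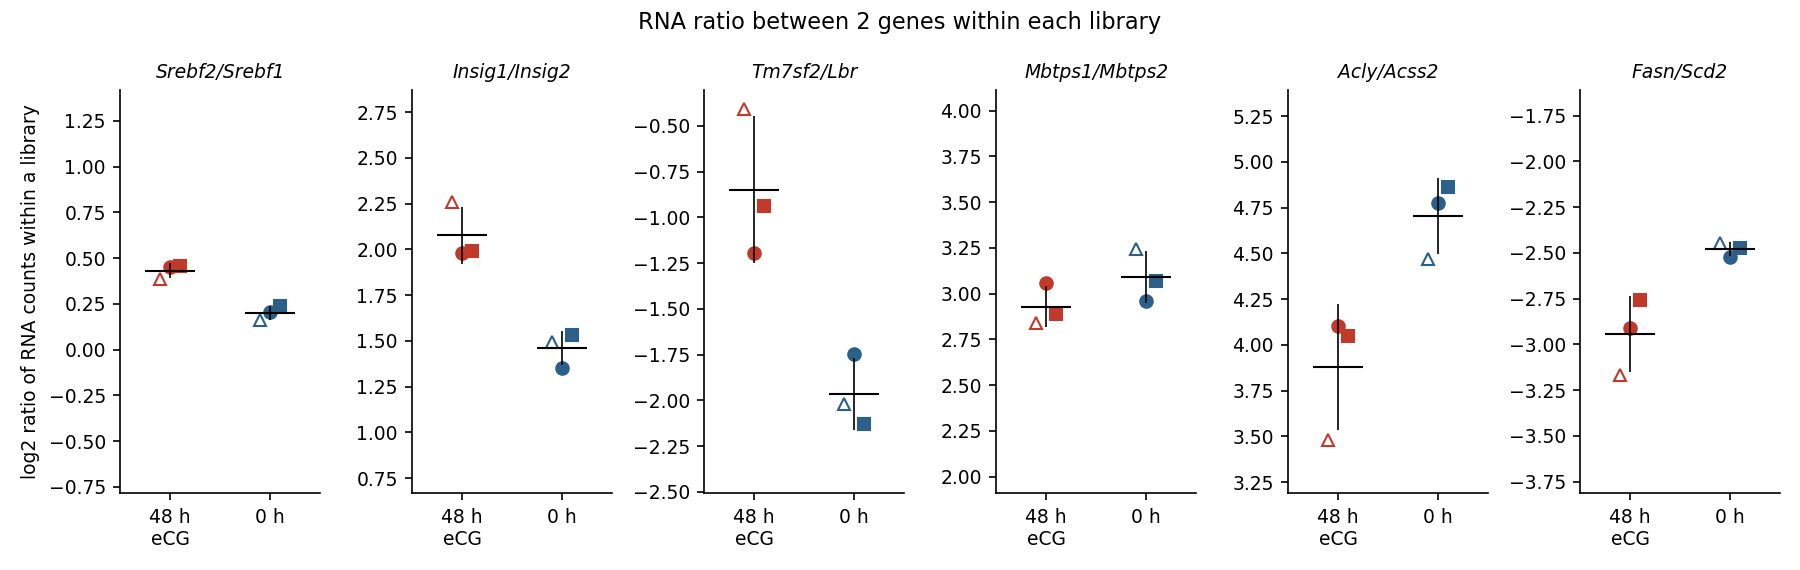
Log2 ratio of the RNA counts of 2 genes within each library for 6 pairs, 48 h eCG on the left and 0 h on the right of each panel; marks are libraries (open triangles, replicate 1), horizontal lines are means and vertical lines SD (n = 3 each), and each panel spans the same height. The Tm7sf2 over Lbr ratio is higher by 1.12 at 48 h and the Acly over Acss2 ratio differs by -0.82, while the groups of Mbtps1 over Mbtps2 overlap.

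H3K4me3 was higher at 48 h at a smaller number of the members than RNA. Of the 33 genes 13 rose and none fell by edgeR's test over 24476 genes, of which 8.42% were called, 6.35% higher and 2.08% lower. The 24476 include many IDs without any RNA count, where H3K4me3 is mostly low. As 30 members lie above the background limit given below, these shares are not from genes of like level. The median log2 fold was 0.20 over the members and -0.0014 over all genes. Of the 5 members with a fold under 0 none had an unadjusted p under 0.05, and none fell with DESeq2. Values are H3K4me3 counts per gene, since the window counted is not given in the sources used here, and each group has 2 libraries. With so few libraries, groups can easily lie apart by chance. The share of all genes where they do was not computed, so groups lying apart are not read as support. The split of all calls rests on scaling and filter: 75.4% were higher as fitted, 52.3% with scaling by library size alone and 55.2% with a filter at a mean of 5 CPM. Under these settings 12 and 13 members rose.

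From isoprenoids to lanosterol 4 of 5 genes rose in H3K4me3. Fdps had 84.9 and 88.2 CPM at 48 h, against 63.6 and 59.8 CPM at 0 h (log2 fold 0.49 ± 0.07, adjusted p = 3.35e-06). Sqle had 100.03 and 105 CPM at 48 h, against 80.1 and 76.7 CPM at 0 h (log2 fold 0.38 ± 0.07, adjusted p = 1.67e-04). In both genes the 48 h libraries were clearly apart from the 0 h libraries. Lss had 50.6 and 49.2 CPM at 48 h, against 39.7 and 38.2 CPM at 0 h (log2 fold 0.35 ± 0.08, adjusted p = 0.00157), and Fdft1 had 60.4 and 69.05 CPM at 48 h, against 53.1 and 53.5 CPM at 0 h (log2 fold 0.28 ± 0.08, adjusted p = 0.0119). Ggps1 had 185 and 162 CPM at 48 h, against 152 and 159 CPM at 0 h and did not pass (log2 fold 0.16 ± 0.07, adjusted p = 0.184). Of the mevalonate genes only Hmgcs1 rose, with 115 and 114 CPM at 48 h, against 90.1 and 87.6 CPM at 0 h (log2 fold 0.37 ± 0.07, adjusted p = 2.34e-04). Mvk (log2 fold 0.15 ± 0.07), Mvd (0.20 ± 0.07) and Idi1 (0.21 ± 0.07) did not pass, with adjusted p-values of 0.216, 0.0676 and 0.0630. No gene of acetyl-CoA supply passed: the log2 folds were 0.20 ± 0.07 for Acly, 0.06 ± 0.08 for Acss2 and 0.03 ± 0.08 for Acat2, with adjusted p-values of 0.0746, 0.744 and 0.868.

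Among the late enzymes 4 of 10 rose in H3K4me3. Tm7sf2 had 24.9 and 29.2 CPM at 48 h, against 20.2 and 16.9 CPM at 0 h (log2 fold 0.54 ± 0.11, adjusted p = 5.78e-04), the highest fold of the members on low counts. Its level at 0 h was close to the background limit of 17.5 CPM given below, and 0 h replicate 2 lay under it. Msmo1 had 104 and 111 CPM at 48 h, against 79.4 and 75.6 CPM at 0 h (log2 fold 0.47 ± 0.07, adjusted p = 4.21e-06). The error was smaller for Msmo1 than for Tm7sf2. Lbr had 82.8 and 81.2 CPM at 48 h, against 64.4 and 70.6 CPM at 0 h (log2 fold 0.28 ± 0.07, adjusted p = 0.00731), and Sc5d had 81.3 and 84.9 CPM at 48 h, against 67.2 and 72.2 CPM at 0 h (log2 fold 0.26 ± 0.07, adjusted p = 0.0162). Hsd17b7, with the highest RNA fold, had 59.6 and 67.5 CPM at 48 h, against 65.4 and 58.8 CPM at 0 h in H3K4me3, with overlapping groups (log2 fold 0.03 ± 0.08, adjusted p = 0.872). Dhcr7, with the second highest RNA fold, had 35.04 and 35.7 CPM at 48 h, against 39.3 and 36.2 CPM at 0 h (log2 fold -0.10 ± 0.08, adjusted p = 0.553), both 48 h libraries slightly under the 0 h libraries. Cyp51 (0.20 ± 0.07, adjusted p = 0.0722), Por (0.16 ± 0.07, 0.187), Nsdhl (0.11 ± 0.08, 0.482) and Ebp (0.03 ± 0.09, 0.870) did not pass either.

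In SREBP control the escort and the sterol factor rose in H3K4me3. Scap had 111 and 112 CPM at 48 h, against 81.1 and 80.1 CPM at 0 h (log2 fold 0.47 ± 0.07, adjusted p = 3.45e-06). Srebf2 had 85.8 and 79.3 CPM at 48 h, against 64.2 and 63.9 CPM at 0 h (log2 fold 0.36 ± 0.07, adjusted p = 4.47e-04). In both genes the groups were well apart. Srebf1 (0.11 ± 0.08, adjusted p = 0.458), Insig1 (0.08 ± 0.07, 0.612), Mbtps1 (0.07 ± 0.07, 0.637) and Mbtps2 (-0.05 ± 0.08, 0.749) did not pass. Of fatty acid synthesis, Scd2 had 222 and 239 CPM at 48 h, against 182 and 192 CPM at 0 h (log2 fold 0.30 ± 0.07, adjusted p = 0.00237), and Fasn had 109.8 and 107 CPM at 48 h, against 86.7 and 94.8 CPM at 0 h (log2 fold 0.26 ± 0.07, adjusted p = 0.0146). Pmvk (log2 fold -0.12 ± 0.35, adjusted p = 0.893), Insig2 (-0.02 ± 0.35, 0.985) and Acaca (-0.61 ± 0.34, 0.313) had 1.32 to 2.49 CPM in every library. These 3 lie under 17.5 CPM, the 95th percentile of the mean H3K4me3 of 5129 gene IDs without any RNA count, so no change could be read at their counted windows.

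**Figure D4:**
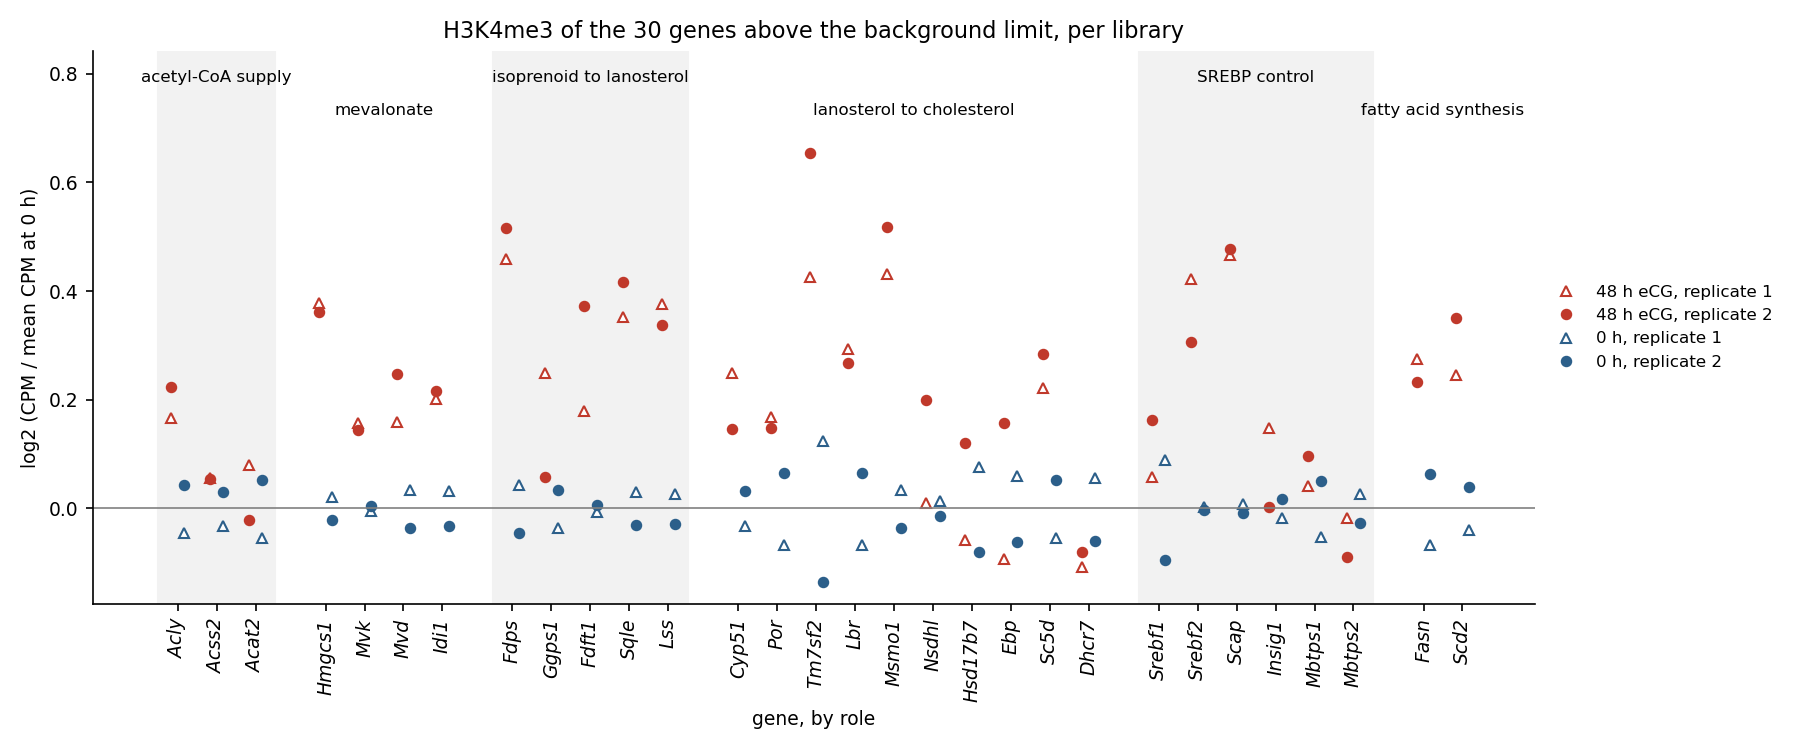
H3K4me3 level in each library, as log2 of CPM over the gene's 0 h mean, of the 30 genes whose mean over both groups is above the background limit of 17.5 CPM. Red marks are the 2 libraries at 48 h and blue marks the 2 at 0 h, with open triangles for replicate 1. Fdps, Msmo1, Tm7sf2 and Scap have their 48 h libraries furthest above 0 h, while Hsd17b7, Ebp and Acat2 overlap and Dhcr7 lies slightly under 0 h.

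The number of H3K4me3 calls rests in part on 1 library. Without 0 h replicate 1 only 5 members passed, Hmgcs1, Fdps, Sqle, Msmo1 and Scap, and the calls over all genes were 159 higher and 123 lower, against 1554 and 508 with every library (56.4% of calls higher, against 75.4%). These 5 are the members called under each of the 10 alternatives run. The called genes also changed without 48 h replicate 2: Fdft1, Sc5d and Scd2 lost their call, and Cyp51 and Ggps1 gained one. With DESeq2 9 members passed.

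All 13 members that rose in H3K4me3 also rose in RNA, 17 rose in RNA only and 3 passed in neither assay. Of the 17, 14 had H3K4me3 above the background limit. Across the 33 members the Spearman correlation of the 2 log2 folds was 0.30, across the 30 above the limit 0.18 and across all 14357 genes tested in both assays 0.26, given as a description over genes that share their libraries. The plot of both folds shows Tm7sf2, Fdps and Msmo1 high in both assays and Hsd17b7 and Dhcr7 high in RNA alone. For 8 members the H3K4me3 count was within 20% of that of a gene within 5000 bases, in every library, so the count may belong to either gene or both: Acss2 with Gss, Mvk with Mmab, Mvd with 9330133O14Rik, Ggps1 with Arid4b, Cyp51 with Akap9, Nsdhl with Cetn2, Hsd17b7 with 3110045C21Rik and Dhcr7 with Nadsyn1. None of these 8 is among the 13 called in H3K4me3. RNA of these 8 neighbours, looked at after the values were seen, gave no rise and 1 fall, near the shares over all genes tested (16.0% higher and 15.8% lower), so nothing is read from that count. The fall was that of Arid4b (log2 fold -0.30 ± 0.08, adjusted p = 0.0235). Mmab, beside Mvk, had a log2 fold of 0.08 ± 0.08 (adjusted p = 0.461), Nadsyn1, beside Dhcr7, -0.12 ± 0.14 (0.576), and 3110045C21Rik, beside Hsd17b7, -0.36 ± 0.41 (0.528).

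**Figure D5:**
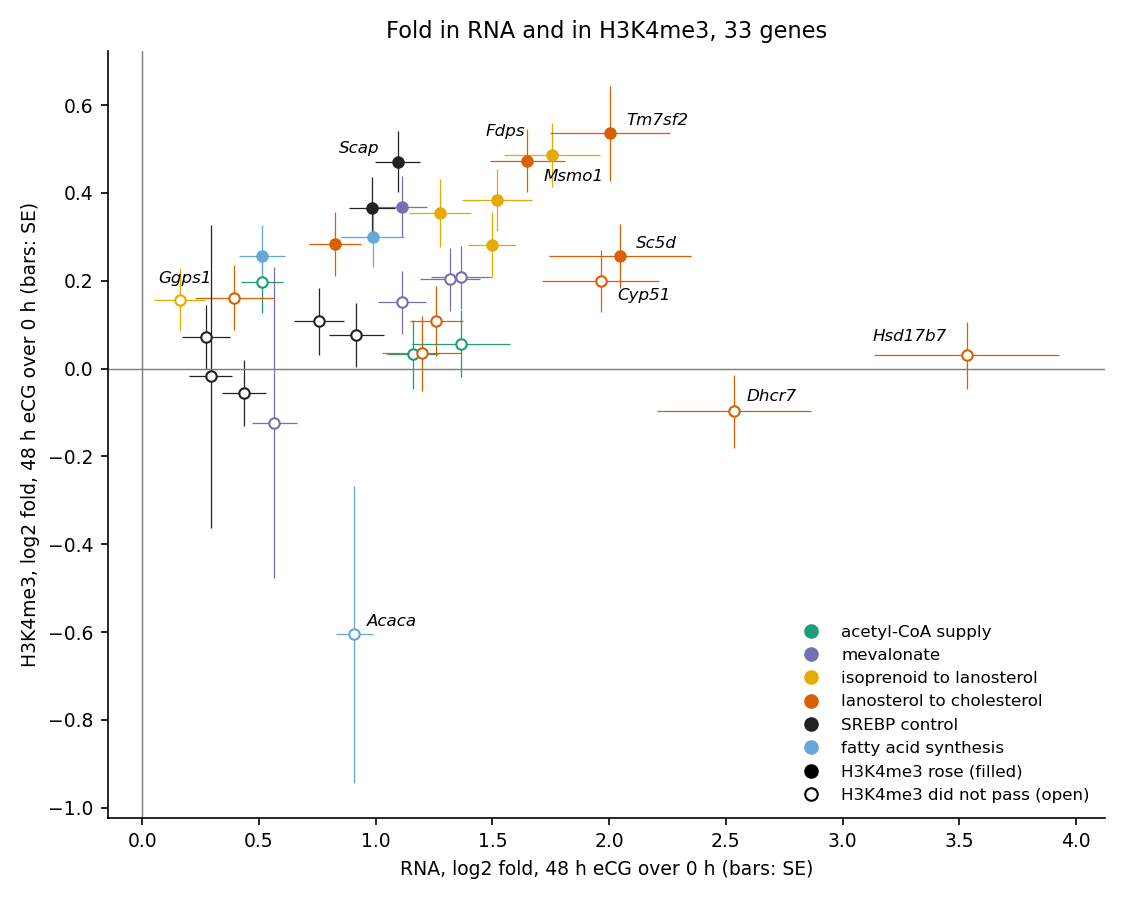
Log2 fold of 48 h eCG over 0 h in RNA (horizontal axis) and in H3K4me3 (vertical axis) for the 33 genes, coloured by role, with SE bars; filled points rose in H3K4me3 and open points did not pass there. Tm7sf2 lies at 2.00 in RNA and 0.54 in H3K4me3, Hsd17b7 at 3.53 and 0.03, and Dhcr7 at 2.53 and -0.10.

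Other genes of the same pathways were listed by role, with earlier results of these data known. They were 25 of sterol and isoprenoid metabolism, 13 regulators of SREBPs or of sterol balance and 14 of lipogenesis. Of these 52 genes 51 were found in the tables and 50 were tested in RNA, of which 32 rose, 2 fell and 16 did not pass, with a median log2 fold of 0.50, against 16.0% higher, 15.8% lower and a median of -0.03 over all genes tested. Without 48 h replicate 1, 32 rose and 2 fell, with a median of 0.46. In sterol and isoprenoid metabolism 12 of 23 rose and none fell. Stard4, a carrier of cholesterol between membranes, had 49.8, 55.7 and 65.7 CPM at 48 h, against 31.1, 27.4 and 23.2 CPM at 0 h (log2 fold 1.07 ± 0.14, adjusted p = 0.00105). Erg28, a scaffold of the C4 demethylation enzymes, had 80.05, 78.8 and 80.8 CPM at 48 h, against 46.2, 36.2 and 37.1 CPM at 0 h (log2 fold 1.01 ± 0.10, adjusted p = 4.45e-04). Both were about 2-fold higher with groups that did not overlap. Of the regulators 8 of 13 rose and 2 fell. Rnf145, a ubiquitin ligase of the endoplasmic reticulum, had 227, 238 and 226 CPM at 48 h, against 131, 99.5 and 124 CPM at 0 h (log2 fold 0.97 ± 0.11, adjusted p = 6.97e-04). The genes that fell were Mylip and Lpin1. Mylip, a ubiquitin ligase that degrades lipoprotein receptors and is a target of the sterol-sensing liver X receptors, had 8.13, 6.72 and 6.70 CPM at 48 h, against 16.2, 21.8 and 15.6 CPM at 0 h (log2 fold -1.32 ± 0.17, adjusted p = 0.00105). Lpin1, a phosphatidate phosphatase that restrains nuclear SREBP, had 27.1, 31.96 and 25.9 CPM at 48 h, against 42.05, 46.4 and 45.3 CPM at 0 h (log2 fold -0.65 ± 0.10, adjusted p = 0.00246). Both also fell in H3K4me3 (log2 folds of -0.42 ± 0.08 and -0.28 ± 0.08, adjusted p-values of 9.87e-05 and 0.0118).

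In lipogenesis 12 of 14 genes rose in RNA and none fell, with a median log2 fold of 0.85. Elovl6, the elongase of long saturated fatty acids, had 765, 591 and 605 CPM at 48 h, against 159, 167 and 143 CPM at 0 h (log2 fold 2.06 ± 0.13, adjusted p = 8.90e-05). Fads2, the delta-6 desaturase, had 593, 299 and 241 CPM at 48 h, against 120.5, 90.1 and 125 CPM at 0 h (log2 fold 1.75 ± 0.31, adjusted p = 0.00375). Every 48 h library of both genes was above every 0 h library, and Fads2 was highest in 48 h replicate 1, without which its log2 fold was 1.27 (adjusted p = 7.92e-04). Both also rose in H3K4me3 (log2 folds of 0.47 ± 0.07 and 0.56 ± 0.07, adjusted p-values of 2.89e-06 and 3.45e-07). Over the 51 genes, H3K4me3 rose in 10 and fell in 3: by list, 2 rose and 1 fell in sterol and isoprenoid metabolism, 1 rose and 2 fell among the regulators, and 7 rose in lipogenesis. Over all genes tested in H3K4me3 6.35% rose and 2.08% fell, and the counts of 2 and 1 in sterol and isoprenoid metabolism are near those shares.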

How the data were processed

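Both deposited tables hold raw read counts per Entrez gene ID, whole numbers that the authors left unnormalized as far as the values show. Per the submitters' processing notes, the build was mm10, and the tools named are STAR, kallisto, sleuth, Picard and FastQC 0.11.5 for RNA and MACS2 2.2, Bowtie2 2.2.9, ChIPseeker 1.18.0 and Trimmomatic for ChIP-seq, without role or order. The sources used here give neither the counting program, nor the H3K4me3 window, nor strand use, and reads of overlapping genes or near copies could be split either way. An input library was not analysed here.

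In each assay 48 h was compared with 0 h on all genes by the quasi-likelihood test of edgeR 4.0.16 in R 4.3.3 (TMM, filterByExpr, Benjamini-Hochberg, adjusted p under 0.05, no fold minimum); the standard error was derived from the test statistic and shares variation across genes. The biological coefficients of variation were 0.141 (RNA) and 0.0465 (H3K4me3). CPM were computed here with TMM scaling. Replicates differed by more than sampling noise. Ratios used counts plus 0.5. The script was tested on simulated data. The 33 members and the neighbouring and marker lists (granulosa, theca, endothelial, immune, red cell, oocyte, smooth muscle) were chosen with earlier results of these data known. All members are named, and of each neighbouring list the called genes with the 2 highest and 2 lowest RNA folds, except a result not reported here. Symbols came from RefSeq (24742 of 24809 and 24472 of 24541 IDs matched). Alternatives were other scalings, DESeq2 1.42.0, filters, a replicate block, and each library left out.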

Additional observations from a re-analysis of the deposited data

How the results depend on the processing

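Under all 12 RNA alternatives 29 to 31 of the 33 members rose and none fell. Their median log2 fold was 1.06 to 1.19 when each library was left out, and 0.94 with scaling by library size alone. That scaling moved the median of all genes to -0.20, against -0.03 as fitted, and the share of RNA calls that were higher to 26.8%, against 50.2%; the fold of Ggps1 became -0.0083. Of 396 member values under RNA alternatives, 386 kept direction and side of the threshold. Of 327 such values in H3K4me3, 287 did, 18 changed sign, 20 lost their call and 2 gained one.

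In H3K4me3 the members that rose were 5 to 12 when each library was left out, 9 with DESeq2 and 11 to 13 under the other alternatives. The median fold of members was 0.17 to 0.19 when each library was left out, 0.145 with library size alone, 0.177 without a filter and 0.152 with a filter at a mean of 5 CPM. H3K4me3 folds near 0 changed sign: with library size alone and with that filter, Acat2 had -0.022 and -0.017, Hsd17b7 -0.024 and -0.019 and Ebp -0.019 and -0.015. With each library left out, Acat2 had -0.044 to 0.084, Pmvk -0.28 to 0.074, Hsd17b7 -0.063 to 0.106, Ebp -0.099 to 0.143, Insig1 -0.0053 to 0.149, Insig2 -0.27 to 0.24 and Mbtps1 -0.0018 to 0.122. The cause was not tested. Pmvk, Insig2 and Acaca have no value with that filter.

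The labels' replicate numbers were not used to pair samples in the main fit. Deviations from the group mean of same-numbered libraries had correlations of -0.22, -0.15 and -0.15 in RNA and -0.0094 in H3K4me3. Such deviations cancel within a group, and with 2 libraries per group all H3K4me3 correlations have the same size. These correlations therefore cannot settle whether the numbers pair the samples. With the replicate block 29 members rose in RNA and 11 in H3K4me3, where Insig2 had 0.010; calls over all genes were 1788 higher and 1524 lower in RNA and 908 and 372 in H3K4me3. H3K4me3 has 2 libraries per group, and the 3 genes under the background limit carry no reading.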
